A study of Homo sapiens with 6 samples.

Results

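INSM1 and 7 further genes of the neuroendocrine lineage, GATA2, GATA3, HES6, PHOX2A, HAND2, TH and DBH, were followed in H295R/TR SF-1 cells. H295R is a human adrenocortical carcinoma cell line, and in this subclone doxycycline (Dox) switches on extra SF-1, the nuclear receptor that directs steroidogenic differentiation and is encoded by NR5A1. Every probe set that the platform annotation gives to 1 of these genes alone was taken, which made 14 probe sets for 8 of 19775 genes on the array. A probe set is a group of short probes that read 1 transcript, and its value is a log2 signal, so that a difference of 1 is a 2-fold change. The genes were chosen by name with earlier results of these arrays known. The values that chose them were log2 differences between these arrays, among them the rise of INSM1 in some of the arrays, and INSM1, HES6 and GATA3 are also among the genes that the study lists as changed by SF-1. The values of the 8 genes are therefore a description, and no p-value is given for them.

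Total RNA was measured on 6 Affymetrix arrays, 3 labelled basal and 3 labelled Dox. Both groups are the same subclone with the same inducible SF-1 construct and were cultured for 72 h, and the Dox group differed by doxycycline at 1 µg/mL. A single subclone limits how far the values extend to other adrenocortical cells. The arrays of a group are biological replicates according to the study's methods, and they are named here by group and order of deposition.

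Neuroendocrine cells store hormones or amines in dense-core granules and release them on stimulation. In the adrenal gland they are the chromaffin cells of the medulla, which descend from the neural crest, whereas the steroid-producing cortex is of mesodermal origin. A network of transcription factors that includes PHOX2A, HAND2, GATA2, GATA3 and INSM1 directs the sympathoadrenal lineage, and TH and DBH are the enzymes by which its cells make catecholamines.

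The labels and the transcript levels did not run together on these arrays, which bears on each value that follows. The array basal 1 was nearly identical to Dox 1, with an SD of 0.134 for their difference over 54613 probe sets, and basal 3 to Dox 2, with an SD of 0.149, whereas arrays of the same label differed with an SD of 0.258 to 0.452. In basal 2 and Dox 3 the signals were less widely spread, and these arrays form 1 array set and the other 4 another. NR5A1 itself was at 5.84, 5.92 and 6.30 in basal 1, 2 and 3 and at 5.55, 6.21 and 6.41 in Dox 1, 2 and 3, a difference of 0.03 between the labelled groups (exact permutation test, two-sided, p = 1, n = 3 each, where 0.1 is the smallest p possible). This signal lay above the array median in 5 of the 6 arrays, and whether its probe set reads the transcript of the construct was not tested. The study reports SF-1 overexpression after doxycycline from an immunoblot, and protein was not measured on these arrays. The 3 highest NR5A1 values were in basal 3, Dox 2 and Dox 3. Without basal 3 and Dox 1 the difference was 0.43 ± 0.13 (SE of the limma fit with the array set as a block, adjusted p = 0.0808), which did not pass the threshold of 0.05. The main results are therefore given for all 6 arrays by label and for 4 arrays, with basal 3 and Dox 1 left out and the array set as a block. Leaving out these arrays rather than their near-copies was a choice made with the results known. It sets the size and, in some genes, the sign of the values from 4 arrays, whereas Dox 3 and basal 2 are kept under either choice. Whether labels of arrays were exchanged was not tested, and a labelled difference has the meaning of its label only if they were not.

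INSM1, HES6 and GATA3 were the members that varied. In all 3 genes the arrays basal 3, Dox 2 and Dox 3 were high and basal 1 and Dox 1 were low, while basal 2 was low in INSM1 and HES6 and intermediate in the brightest probe set of GATA3. The other 5 genes, GATA2, PHOX2A, HAND2, TH and DBH, stayed within 0.46 (log2) over the 6 arrays in each of their probe sets. Signals that spanned more than 2-fold over the 6 arrays were found in 6 of the 14 member probe sets, all from INSM1, HES6 and GATA3, and in 8.21% of all probe sets. Since these are bulk samples, a change in RNA per cell and a change in the share of cells that carry a transcript cannot be told apart.

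**Figure D1:**
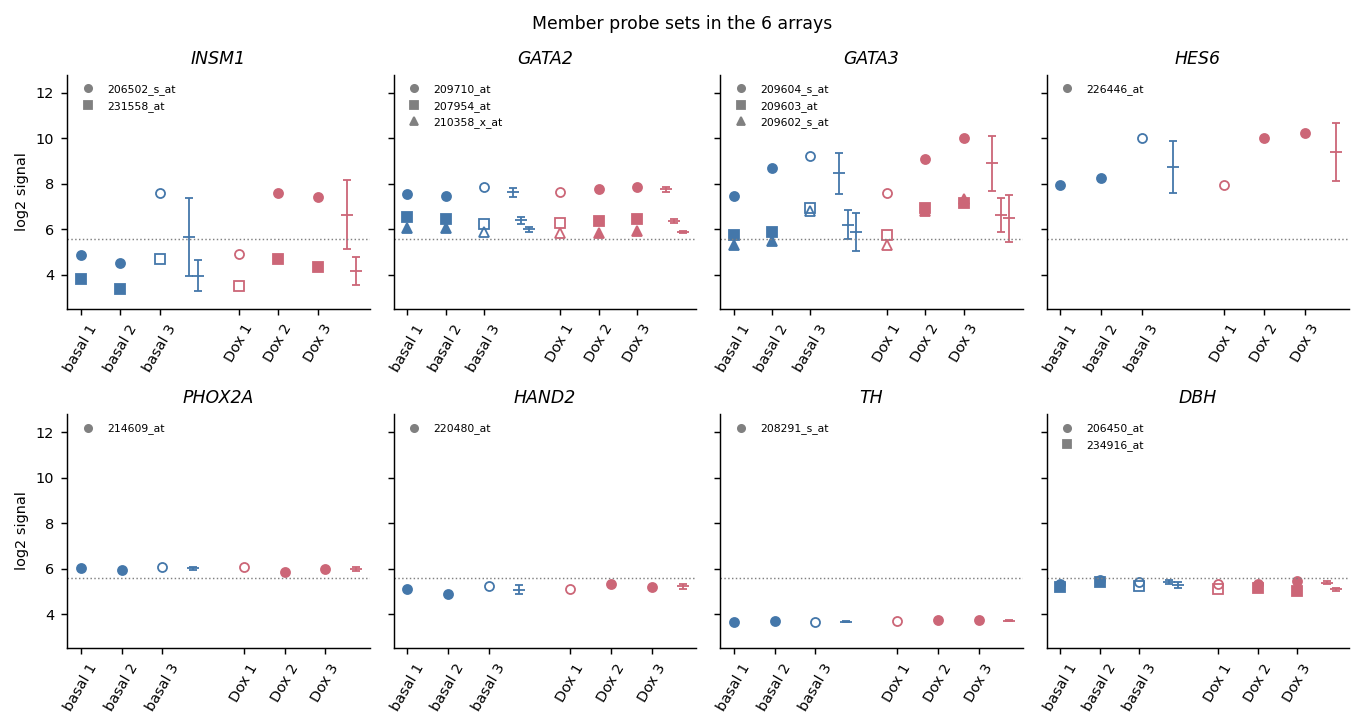
Log2 signal (y axis) of the 14 member probe sets in each of the 6 arrays (x axis, by labelled group), with a marker shape for each probe set, open symbols for basal 3 and Dox 1, and bars to the right of each group for the mean ± SD of its 3 arrays; the dotted line is the mean of the array medians. INSM1 probe set 206502_s_at sat at 4.51 to 4.91 in 3 arrays and at 7.44 to 7.61 in the 3 others, while TH stayed between 3.64 and 3.73.

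The promoters of members for which the reference table has a start were read, because INSM1, HES6 and GATA3 moved together on these arrays and because the study addresses SF-1 and the neuronal repressor NRSF/REST. The table (RefSeq, GRCh38.p14) had windows for 6 of the 8 genes, 12 windows in all, with 6 for GATA3 and 2 for GATA2, and none for INSM1 and TH. Each window runs from 250 bases before to 50 after a transcription start. The 250 bases before the start are shown for HES6 and for 1 of the GATA3 starts (a start with 3 matches), as members that varied, and for HAND2 and DBH, as members that did not. Capitals mark matches to the motifs that were searched on both strands.

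HES6, chr2:238240039-238240288, minus strand: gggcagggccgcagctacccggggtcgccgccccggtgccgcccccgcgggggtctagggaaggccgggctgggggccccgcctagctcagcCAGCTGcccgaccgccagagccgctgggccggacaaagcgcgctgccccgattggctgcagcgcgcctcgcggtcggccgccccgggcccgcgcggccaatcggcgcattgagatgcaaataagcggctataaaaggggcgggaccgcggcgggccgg
GATA3, chr10:8054438-8054687, plus strand: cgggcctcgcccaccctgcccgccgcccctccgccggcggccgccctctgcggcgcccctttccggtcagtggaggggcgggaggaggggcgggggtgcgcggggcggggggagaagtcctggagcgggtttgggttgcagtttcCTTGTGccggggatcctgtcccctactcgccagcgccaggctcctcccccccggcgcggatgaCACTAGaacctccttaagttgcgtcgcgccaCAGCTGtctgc
HAND2, chr4:173530230-173530479, minus strand: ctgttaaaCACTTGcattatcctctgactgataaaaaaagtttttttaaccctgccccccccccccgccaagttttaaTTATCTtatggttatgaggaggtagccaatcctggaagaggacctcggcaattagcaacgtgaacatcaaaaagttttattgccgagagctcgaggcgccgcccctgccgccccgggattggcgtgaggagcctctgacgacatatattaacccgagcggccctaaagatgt
DBH, chr9:133636113-133636362, plus strand: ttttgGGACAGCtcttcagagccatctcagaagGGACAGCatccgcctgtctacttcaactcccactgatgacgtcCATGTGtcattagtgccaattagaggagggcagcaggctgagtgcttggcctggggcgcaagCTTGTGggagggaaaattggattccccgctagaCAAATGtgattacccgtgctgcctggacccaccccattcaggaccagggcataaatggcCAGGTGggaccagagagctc

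The motif AAGGTCA, to which SF-1 binds as a monomer, was in 0 of the 12 windows, against 3.92% of the 35116 promoters of the table. At that share few or no matches would be found in 12 windows, and only this exact string was searched. The study places the majority of SF-1 sites distal to genes, so the count does not show that SF-1 sites are absent from these genes. The GATA motif AGATAA was in 1 window, that of HAND2, at -172 on the minus strand (10.3% of all promoters). The motif CANNTG, the E-box read by basic helix-loop-helix factors such as HAND2, was in 7 windows (68.7% of all promoters), with 1 match in HES6 at -158. The N-box CACNAG, read by factors of the HES family, was in 5 windows (38.0% of all promoters), among them 3 of GATA3. Of the parts of the NRSF/REST element, the left, CAGCACC, was in 0 windows (7.75% of all promoters) and the right, GGACAGC, was in the DBH window alone, at -245 and -217 (6.03% of all promoters). Positions count from the start, with -1 as the base before it, and give the first base of the match in the direction of the gene. No matches overlapped in these windows. A match is a string of letters and not a binding site, and INSM1, the member with the widest range, could not be read.

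INSM1 encodes a zinc-finger repressor that drives the differentiation of endocrine and chromaffin cells and is used as a marker of neuroendocrine tumours. Its brighter probe set, 206502_s_at, was at 4.85, 4.51 and 7.61 in basal 1, 2 and 3 and at 4.91, 7.59 and 7.44 in Dox 1, 2 and 3. The 6 values fell into a low and a high triplet with no array between them, and each triplet held both labels. By label the means were 5.66 ± 1.70 in basal and 6.65 ± 1.5 in Dox (SD, n = 3 each), a difference of 0.99 ± 0.99 (SE of the limma fit), which was smaller than the SD within either label. In the 4 arrays the difference in signal was 2.83 ± 0.14 (SE, n = 2 each), or 7.13-fold, with 2.74 for Dox 2 minus basal 1 and 2.93 for Dox 3 minus basal 2. The near-identical arrays differed far less, by 0.06 for Dox 1 minus basal 1 and by -0.01 for Dox 2 minus basal 3.

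The other INSM1 probe set, 231558_at, was lower and changed less. It was at 3.83, 3.37 and 4.70 in basal 1, 2 and 3 and at 3.49, 4.68 and 4.35 in Dox 1, 2 and 3, below the median signal of each array. The same arrays were high as in the brighter set, and the labels overlapped again. The difference was 0.21 ± 0.40 by label and 0.91 ± 0.14 in the 4 arrays, so the size of the INSM1 change depended on the probe set. The low levels of the brighter set (30.3 as the lowest percentile among the probe sets of an array) also lay below the median, with no evidence that they exceed background, so the 7.13-fold ratio is one of signals and not a measured ratio of transcripts.

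HES6 encodes a HES family member that counteracts HES1 and promotes neuronal differentiation. Its probe set, 226446_at, was at 7.93, 8.25 and 10.03 in basal 1, 2 and 3 and at 7.93, 10.02 and 10.22 in Dox 1, 2 and 3. The values formed the same triplets as in INSM1, here with the low values above the array medians as well. The labelled difference was 0.65 ± 0.75 (8.73 ± 1.13 in basal and 9.39 ± 1.27 in Dox, SD, n = 3 each), within the spread of the arrays of a label. In the 4 arrays it was 2.03 ± 0.12 (SE, n = 2 each), or 4.09-fold, with 2.09 and 1.97 in the separate array sets.

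GATA3 encodes a zinc-finger factor needed for sympathetic neurons and chromaffin cells, and also for T cells and mammary epithelium. Its brightest probe set, 209604_s_at, was at 7.47, 8.70 and 9.23 in basal 1, 2 and 3 and at 7.60, 9.08 and 10.00 in Dox 1, 2 and 3. Here basal 2 lay 1.23 above basal 1, and Dox 3 lay 0.92 above Dox 2, so that this set differed between the array sets as well as within them. The difference was 0.42 ± 0.66 by label and 1.45 ± 0.12 in the 4 arrays (SE, n = 2 each), with 1.60 for Dox 2 minus basal 1 and 1.30 for Dox 3 minus basal 2.

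The remaining GATA3 probe sets showed less of the difference between array sets. Probe set 209603_at was at 5.76, 5.89 and 6.93 in basal 1, 2 and 3 and at 5.76, 6.93 and 7.15 in Dox 1, 2 and 3. Probe set 209602_s_at was at 5.33, 5.49 and 6.82 in basal 1, 2 and 3 and at 5.33, 6.80 and 7.31 in Dox 1, 2 and 3. Both had the low and high triplets of INSM1. In these 2 sets basal 2 lay 0.13 and 0.16 above basal 1, and Dox 3 lay 0.22 and 0.51 above Dox 2. The differences of these sets in the 4 arrays were 1.22 ± 0.14 and 1.64 ± 0.15, and by label 0.42 ± 0.44 and 0.60 ± 0.58. All 3 GATA3 probe sets thus had 1 direction in the 4 arrays, with fold values of 2.73, 2.33 and 3.12 in the order described. The low values of 209602_s_at lay below the array medians, with no evidence that they exceed background, so its 3.12-fold is a ratio of signals.

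GATA2, which acts beside GATA3 in sympathetic neurons and is also a factor of blood and endothelial cells, showed no such change. Its brightest probe set, 209710_at, was at 7.57, 7.46 and 7.85 in basal 1, 2 and 3 and at 7.66, 7.75 and 7.84 in Dox 1, 2 and 3. The arrays high in INSM1 were the highest here too, on a scale of 0.39 from lowest to highest. Its difference was 0.12 ± 0.15 by label and 0.28 ± 0.13 in the 4 arrays. The other sets, 207954_at and 210358_x_at, were at -0.09 ± 0.14 and -0.18 ± 0.14 in the 4 arrays, so the probe sets of GATA2 gave no common direction. Neither value was far from no change given its SE, and the name of 210358_x_at marks possible cross-hybridization.

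PHOX2A and HAND2, a homeodomain and a basic helix-loop-helix factor of the sympathoadrenal lineage, spanned less than INSM1, HES6 and GATA3. The PHOX2A probe set, 214609_at, was at 6.02, 5.93 and 6.06 in basal 1, 2 and 3 and at 6.06, 5.87 and 5.98 in Dox 1, 2 and 3. That of HAND2, 220480_at, was at 5.11, 4.86 and 5.25 in basal 1, 2 and 3 and at 5.12, 5.33 and 5.20 in Dox 1, 2 and 3, below the median signal of every array. The highest 3 HAND2 values were in the arrays high in INSM1, on a scale of 0.46 from lowest to highest, while those of PHOX2A were not. Their differences in the 4 arrays were -0.05 ± 0.14 and 0.28 ± 0.14, and by label -0.03 ± 0.11 and 0.14 ± 0.13.

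The signals of the catecholamine enzymes stayed low and level. There is no evidence that they exceed background, so level signals do not show that the transcripts were level. TH, tyrosine hydroxylase, which catalyses the rate-limiting step from tyrosine, was at 3.64, 3.69 and 3.65 in basal 1, 2 and 3 and at 3.68, 3.73 and 3.73 in Dox 1, 2 and 3. These values lay between percentiles 17.2 and 19.6 of the probe sets of an array, and the difference was 0.05 ± 0.08 by label and 0.06 ± 0.13 in the 4 arrays. DBH, dopamine beta-hydroxylase, which makes noradrenaline, was at 5.30, 5.50 and 5.43 in basal 1, 2 and 3 and at 5.33, 5.33 and 5.44 in Dox 1, 2 and 3 in probe set 206450_at, with differences of -0.04 ± 0.11 by label and -0.01 ± 0.14 in the 4 arrays. Its other set, 234916_at, was at 5.17, 5.41 and 5.24 in basal 1, 2 and 3 and at 5.12, 5.13 and 5.0 in Dox 1, 2 and 3. The labels did not overlap in that set, the only 1 of the 14, against 3.81% of all probe sets (1.74% higher and 2.07% lower in Dox). Its difference was -0.19 ± 0.11 by label and -0.23 ± 0.15 in the 4 arrays, and both DBH sets lay below the median of every array.

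Antisense genes lie beside several members and are read by probe sets of their own. The 6 probe sets of GATA2-AS1, GATA3-AS1, HAND2-AS1 and DBH-AS1 lay between 3.47 and 5.94 and spanned at most 0.44 over the 6 arrays. The GATA3-AS1 probe sets differed by -0.06 ± 0.13 and 0.09 ± 0.14 in the 4 arrays, beside 1.45 ± 0.12 in the brightest set of GATA3. They lay at 3.47 to 4.68, with no evidence that they exceed background, so a change in this transcript could be missed.

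**Figure D2:**
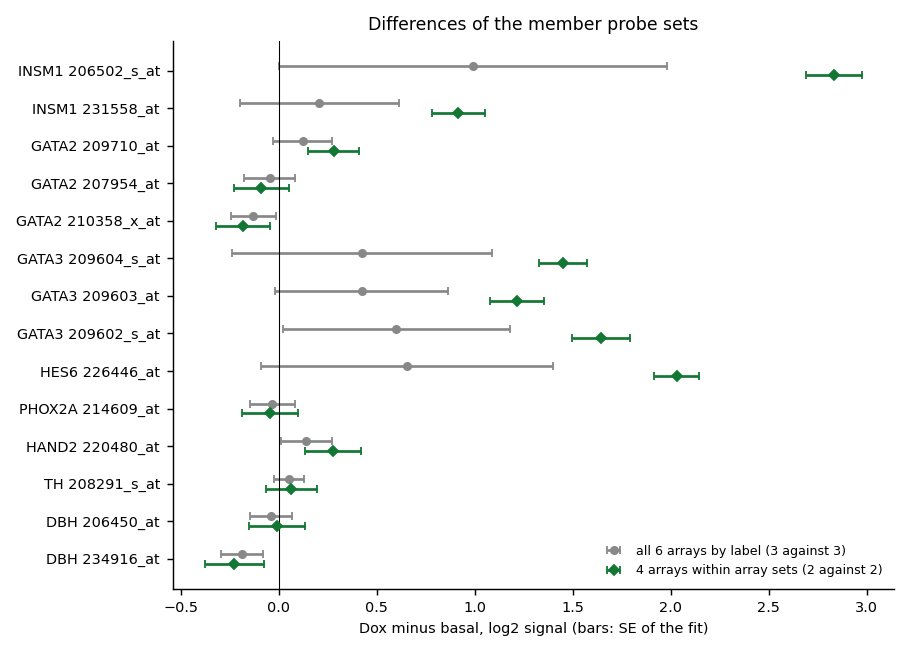
Dox minus basal in log2 signal (x axis, with the SE of the limma fit as bars) for the 14 member probe sets (y axis), from all 6 arrays by label (circles) and from 4 arrays within array sets (diamonds). The 4-array values of INSM1, HES6 and GATA3 lie between 0.91 and 2.83, and those of the 5 other genes between -0.23 and 0.28.

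No gene on the array passed the threshold of an adjusted p under 0.05 in the labelled comparison (limma with Benjamini-Hochberg adjustment, 0% of 19775 genes, lowest adjusted p = 1, and 109 genes at an unadjusted p under 0.05), and the members were among those that did not. In the 4 arrays, 3 of the 8 genes, INSM1, HES6 and GATA3, were past the threshold as higher, against 3.42% of all genes, and 0 were past it as lower, against 3.58%. Over probe sets the members past the threshold were the 6 of INSM1, HES6 and GATA3, all higher, against 2.07% of all probe sets as higher and 4.15% in either direction. The members were proposed from this same contrast, so nothing can be read from these counts. With basal 1 and Dox 2 left out instead of basal 3 and Dox 1, the 4-array differences were 0.12 ± 1.28 in INSM1 (206502_s_at), -0.07 ± 0.93 in HES6 and -0.17 ± 0.68 in GATA3 (209604_s_at). Each of these joins array sets of opposite direction. In the same order of genes, Dox 1 minus basal 3 was -2.69, -2.10 and -1.63, and Dox 3 minus basal 2 was 2.93, 1.97 and 1.30.

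The profile of INSM1 over the 6 arrays was shared by genes of other functions. Likeness was measured as the root mean square difference between log2 profiles centred per gene, over 6 arrays and 19774 genes, each at its brightest probe set. KIT, a receptor tyrosine kinase, was nearest at 0.114, with 6.41, 6.15 and 9.24 in basal 1, 2 and 3 and 6.44, 9.13 and 8.73 in Dox 1, 2 and 3. It was followed by COL18A1, a basement membrane collagen, at 0.118, EPAS1, the hypoxia-inducible factor HIF-2α, at 0.127, TGM2, a transglutaminase, at 0.171 and ELOVL3, a fatty acid elongase, at 0.191. HES6 was at rank 27 (0.450) and GATA3 at rank 151 (0.886). The nearest of the other members, GATA2, was at rank 1290 (1.271). That distance is close to the 1.412 of PHOX2A, whose values hardly varied, so the rank by itself does not show a shared profile. These ranks describe the same 6 arrays and carry no test.

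**Figure D3:**
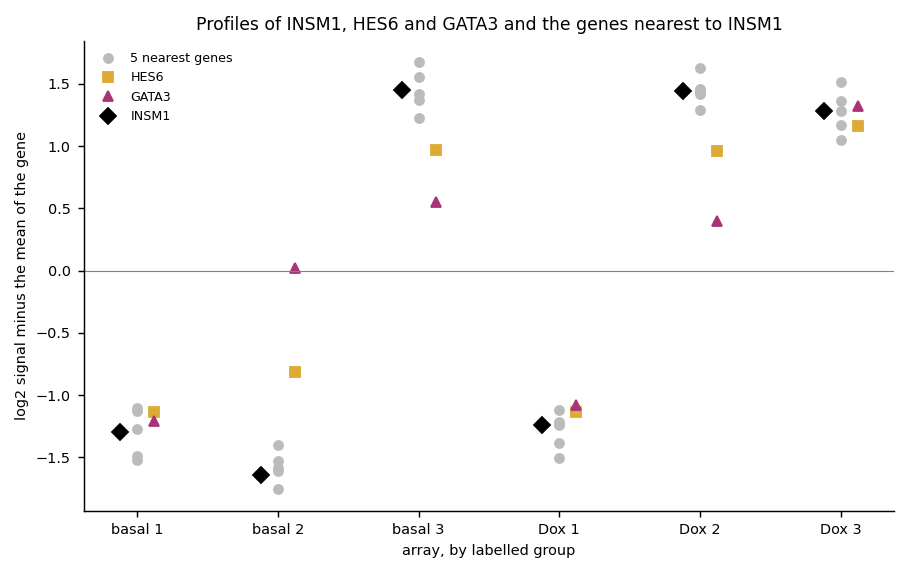
Log2 signal minus the mean of each gene (y axis) in the 6 arrays (x axis, by labelled group) for the brightest probe sets of INSM1 (black diamonds), HES6 (squares) and GATA3 (triangles) and for the 5 genes nearest to INSM1 (grey). INSM1, HES6 and the 5 genes lie low in basal 1, 2 and Dox 1 and high in the 3 others, while GATA3 lies near its mean in basal 2.

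Most other genes of the lineage did not pass the threshold, and those that did went in both directions. In 7 lists with 108 measured genes, 5 were higher and 7 lower in the 4 arrays (limma, adjusted over all 19775 genes), which is 11.1% against 6.99% of all genes. The median difference over the lists was -0.04, and over all genes -0.01. By label, 0 of the 108 passed (0% of all genes as well). The values of the list genes that follow are differences in the 4 arrays ± SE with n = 2 each, and all 12 calls were lost without the array set as a block and with basal 1 and Dox 2 left out instead.

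Among 19 measured sympathoadrenal and neuroendocrine factors, 1 was higher and 0 lower, with a median of -0.08. LMO3, a LIM-domain cofactor, rose by 0.51 ± 0.13 (limma, adjusted p = 0.0353) at levels of 4.58 to 5.49, below the array medians, and another of its probe sets was at -0.17. INSM2, the paralog of INSM1, was at -0.04 ± 0.13, and ISL1, a LIM-homeodomain factor of sympathetic neurons, at 0.07 ± 0.15, both below the array medians. Of 10 GATA family members and cofactors, GATA4, a factor of the gonads and the fetal adrenal, rose by 0.51 ± 0.13 (limma, adjusted p = 0.0319), with probe sets from -0.12 to 0.51. GATA6, the family member of the adult adrenal cortex, was at -0.36 ± 0.12 and did not pass (limma, adjusted p = 0.121).

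None of the 21 HES, HEY and Notch genes passed the threshold, against 6.99% of all genes, a share at which few calls would be found among 21. HES6, at 4.09-fold in the same arrays, was chosen from this contrast, so nothing can be read from setting it against the list. HES1, the repressor that HES6 counteracts, was at -0.11 ± 0.15, HEY2, a Notch target, at -0.37 ± 0.12 and the receptor NOTCH1 at -0.06 ± 0.12. The ligand JAG1 was at -0.38 ± 0.22. The largest positive value was that of NOTCH3, at 0.28 ± 0.13. All of these are values of the brightest probe sets, and other sets were at -0.11 in NOTCH3 and -0.61 in HEY2. The median of the list was -0.04.

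Of 13 measured genes for catecholamine synthesis, storage and removal, 1 was higher and 1 lower. PTS, which makes the tetrahydrobiopterin cofactor that TH requires, rose by 0.75 ± 0.08 (limma, adjusted p = 1.83e-04), from 11.36 and 11.57 in basal 1 and 2 to 12.22 in both Dox 2 and Dox 3. In the arrays left out, PTS was at 12.19 in basal 3 and 11.32 in Dox 1, so it too was high in the arrays in which INSM1 was high. MAOA, a monoamine oxidase, fell by 0.58 on the log2 scale (SE 0.13, limma, adjusted p = 0.0181). DDC, which makes dopamine, was at -0.03 ± 0.13, the vesicular monoamine transporter SLC18A1 at -0.09 ± 0.13 and PNMT, which makes adrenaline, at -0.14 ± 0.15. Of the 13 genes, 9 lay above the median in all 6 arrays, among them PNMT, PTS and MAOA, and 3 lay below it in all, among them DDC and SLC18A1.

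Dense-core granule proteins and peptides had 0 of 20 measured genes higher and 3 lower. CADPS, which primes granules for release, changed by -0.94 ± 0.11 (limma, adjusted p = 3.12e-04), CHGB, chromogranin B, by -0.75 ± 0.15 (limma, adjusted p = 0.00881) and GAL, the peptide galanin, by -0.69 ± 0.14 (limma, adjusted p = 0.0119). CADPS is among the genes that the study lists as lowered on these samples, so it is not independent evidence of direction, and its 6 probe sets ranged from -1.16 to -0.17. CHGA, chromogranin A, was at -0.02 ± 0.14, the secretogranins SCG2 and SCG3 at -0.03 ± 0.13 and 0.02 ± 0.13, and the peptide NPY at -0.13 ± 0.13. Of the 20 genes, 12 lay above the median in all 6 arrays, among them CHGA, CHGB and CADPS, and 5 lay below it in all, among them SCG2, SCG3 and NPY. GAL lay above it in 4 arrays and was lowest in Dox 3, at 4.08.

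Of 17 measured neuronal and chromaffin markers, 1 was higher and 3 lower. NEFM, a neurofilament, changed by -0.95 ± 0.15 (limma, adjusted p = 0.00268), ENO2, neuron-specific enolase, by -0.92 ± 0.16 (limma, adjusted p = 0.00518) and GAP43, a growth cone protein, by -0.83 ± 0.13 (limma, adjusted p = 0.00218). Probe sets of the same gene reached only -0.05 in NEFM and -0.06 in GAP43. ENO2 lay above the array median in 3 of the 6 arrays and GAP43 in 5, with no evidence that their lowest values exceed background. TUBB3, a neuronal tubulin, rose by 0.29 ± 0.08 (limma, adjusted p = 0.0393) in a probe set whose name (202154_x_at) marks possible cross-hybridization. SYP, synaptophysin, was at 0.41 ± 0.13 and did not pass (limma, adjusted p = 0.0969).

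INSM1 acts through the histone demethylase KDM1A, its RCOR partners and histone deacetylases. Of 8 measured genes for such partners and targets, HDAC1 rose by 0.61 ± 0.09 (limma, adjusted p = 0.00106), from 10.87 and 10.92 in basal 1 and 2 to 11.52 and 11.48 in Dox 2 and 3. In the arrays left out, HDAC1 was at 11.475 in basal 3 and 10.83 in Dox 1, and its labelled difference was 0.19 ± 0.24. KDM1A was at -0.11 ± 0.10, RCOR1 at 0.25 ± 0.11 and HDAC2 at 0.06 ± 0.08. CCND1, the cyclin D1 gene that INSM1 represses, was at 0.17 ± 0.13 in its brightest probe set, which lay below the array medians. Its other probe set was at 0.73, so the size of the CCND1 difference depended on the probe set.

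**Figure D4:**
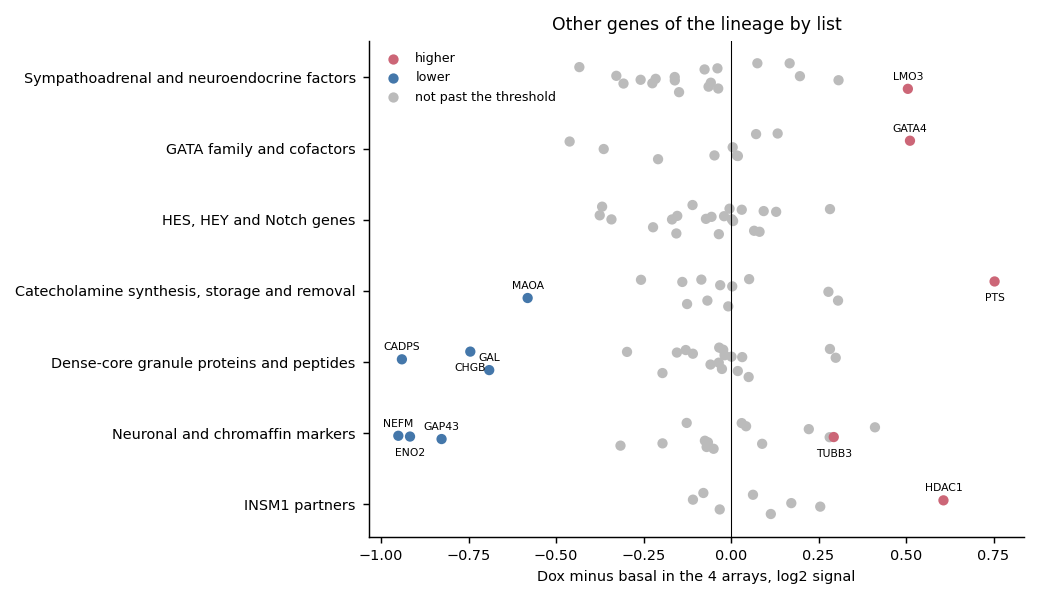
Dox minus basal in the 4 arrays (x axis, log2 signal) for each of 108 genes in 7 lists (y axis), with genes past the adjusted threshold as higher in red and as lower in blue, and the rest in grey. The 12 named genes lie between -0.95 and 0.75, and no gene of the HES, HEY and Notch list is past the threshold.

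Marker lists of several cell types were read beside the members. Of 8 measured cortex markers, 5 were above the median in all 6 arrays, among them STAR, the cholesterol carrier of steroid synthesis, at 10.73 to 11.59, while MC2R, the ACTH receptor, was above it in 1 array. The summed signal of the cortex list was 13 to 13.34 in basal and 13.04 to 13.27 in Dox on the log2 scale. In the 4 arrays SULT2A1, a steroid sulfotransferase, was higher, while STAR and HSD3B2, a steroid dehydrogenase, were lower (limma), and the part of these shifts in the values of the members was not tested. Of 6 measured medulla markers, PNMT, CHGA, CHGB and PHOX2A (4 of 6) were above the median in all arrays and TH and DBH were below it in all, with a summed signal of 8.92 to 9.71 in basal and 8.64 to 9.72 in Dox. Of these, CHGB was lower in the 4 arrays. Of 4 measured Schwann cell and neural crest markers, SOX10, ERBB3 and FOXD3 (3 of 4) were above the median in all arrays, at 5.79 to 6.23, and S100B was below it in all, with sums of 7.68 to 7.83 in basal and 7.76 to 7.81 in Dox. Of 5 endothelial markers, PECAM1, at 6.01 to 6.36, was above the median in all arrays and 3, among them CDH5 and KDR at 3.62 to 4.03, were below it in all, with sums of 7.52 to 7.61 and 7.56 to 7.71. Of 4 measured blood markers, CD3D, CD3E and HBB (3 of 4) were above the median in all arrays, at 5.73 to 6.64, and PTPRC was below it, at 3.04 to 3.41, with sums of 7.76 to 7.88 and 7.70 to 7.88. Of 5 fibroblast markers, COL1A1 was above the median in all arrays and 3 were below it in all, with sums of 8.28 to 8.64 and 8.28 to 8.61. A value above the median thus did not set the cortex list apart from lists of other cell types, whereas its summed signal was the highest of the 6 lists. In the endothelial, blood, fibroblast and neural crest lists, 0 genes passed the threshold in the 4 arrays with limma. Over all genes 6.99% passed, so with this few genes in each list no difference between the cell types can be read from the calls.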

How the data were processed

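The 6 arrays, 3 labelled basal and 3 labelled Dox, were grouped by the treatment in their labels. The authors deposited 1 log2 signal per probe set and array, for which the submitters' processing notes name GCRMA without a version and the study's methods name the maker's console software. Whether the arrays were normalized in 1 run is not given in the sources used here, and these log2 values entered the comparisons as deposited (array medians of 5.56 to 5.60). The number of arrays limits the precision, and p-values of the comparison by label measure the spread between the cultures of a label. Where the array set is a block, differences between the array sets are removed first. Those p-values rest on the spread that remains and on the variance of all genes, and do not measure the full spread between cultures.

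Of 54613 probe sets, the platform annotation gives 41091 a single symbol, 1801 several and 11721 none. Symbols were checked by gene identifier against RefSeq names (0 changed, 54 identifiers without an entry and kept). For each of 19775 genes the brightest probe set (mean of the 6 arrays) was used, and for members all of them. Groups were compared with limma 3.58.1 in R 4.3.3 (linear model and moderated variance, trended on the mean signal), two-sided, with Benjamini-Hochberg adjustment over all genes, or over all probe sets for the values of members, and a threshold of 0.05. The 4-array fit has 1 residual degree of freedom per gene, and its SE draws on the variance of all genes. Scripts were tested on simulated data. The NR5A1 levels were permuted exactly.

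The members, the 7 gene lists, the 6 marker lists, the motifs and the arrays left out were chosen with earlier results of these data known. The rule named all member probe sets, NR5A1, up to 4 called genes in each list, the 5 genes nearest to INSM1 and markers as needed. List genes named beside the called ones were chosen after their values were seen, to give the levels of known genes. Alternatives were the variance trend, a filter on low values, the choice of probe set, quantile normalization, the block, and the arrays left out. Plots used matplotlib 3.10.9 (Python 3.11.15).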

Additional observations from a re-analysis of the deposited data

How the results depend on the processing

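By label, 0 genes passed under every alternative run, including those that left out 1 array in turn (0 to 0 genes) and the one with the array set as a block. In the 4 arrays, 1383 genes passed, 2269 of 54613 features when all probe sets were tested, and 1119 to 1491 without the variance trend, with the filter on low values, with the mean over probe sets and with quantile normalization. The list genes that passed, 12, numbered 10 to 13 under those settings. Without the array set as a block 0 genes passed (837 at an unadjusted p under 0.05 with limma), with label style as the block 0 (1070), which amounts to leaving out basal 1, the only kept array of its style, and with basal 1 and Dox 2 left out instead 0 (112), and 0 list genes passed under each of these 3 settings. Leaving out 1 of the 4 arrays, which also drops the block, gave 0 genes without basal 1, 9 without basal 2, 65 without Dox 2 and 86 without Dox 3, with 0 list genes in each, where the lone array of a label is assumed to vary like the rest. The cause was not tested. The labelled difference of NR5A1 ranged from -0.14 to 0.29 when 1 array was left out, and changed sign without basal 1 (-0.05), basal 2 (-0.02), Dox 2 (-0.04) or Dox 3 (-0.14). Of 126 labelled differences of member probe sets under alternatives, 120 moved by less than the SD within a label. The other 6, in INSM1, GATA2 (209710_at), GATA3 (209603_at and 209602_s_at) and HES6, came from leaving out basal 3 and Dox 1. Without 1 array, that of INSM1 (206502_s_at) ranged from 0.42 without basal 2 to 1.97 without basal 3. No paired analysis was possible because the labels give no replicate number that the groups share, and the array set, a block defined from the spread of signals, does not stand for cultures paired by the study.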

Other observations

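Some granule and neuronal genes differed more between the array sets than between the labels. CHGB, chromogranin B, was at 9.11, 7.46 and 8.14 in basal 1, 2 and 3 and at 9.11, 8.10 and 6.98 in Dox 1, 2 and 3, so that basal 2 minus basal 1 was -1.65 and Dox 3 minus Dox 2 was -1.12. NEFM, a neurofilament, had the same order, with -1.90 and -1.26 for these differences, and GAL, galanin, had -1.38 and -1.80. GATA3 (209604_s_at) went the other way, with 1.23 and 0.92, while INSM1 (206502_s_at) had -0.34 and -0.16. These differences are values of single arrays with no replicate, and their cause was not tested.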
